A study of Rattus norvegicus with 4 samples.

Results

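The genes described here are 6 genes of extracellular matrix turnover, followed across all cell classes of the rat pituitary gland. They are the tissue inhibitors of metalloproteinases Timp1 (ENSRNOG00000010208), Timp2 (ENSRNOG00000003148) and Timp3 (ENSRNOG00000004303), the gelatinase Mmp2 (ENSRNOG00000016695), the membrane-anchored collagenase Mmp14 (ENSRNOG00000010947) and the secreted aggrecanase Adamts1 (ENSRNOG00000001607). They were chosen by gene symbol and are 6 of the 32883 genes in the deposited matrix. Messenger RNA was counted cell by cell, as unique molecular identifiers (UMIs), in pituitaries of female Sprague Dawley rats, 75 days old and at random stages of the cycle. The posterior and the anterior library came from the lobes of the same 30 dissected glands, and whole-gland lanes 1 and 2 were loaded from a single suspension of 30 glands; all cells were dispersed with trypsin and EDTA. Each library thus pools 30 glands, the lanes are technical repeats, and there are 2 preparations, dissected and whole. The series title concerns astroglial and stem cell roles of folliculostellate cells, the star-shaped non-endocrine cells of the anterior lobe.

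The libraries held 61981865 UMIs (posterior), 72754998 (anterior), 71490425 (lane 1) and 63820100 (lane 2), and 3832, 5503, 5530 and 4912 of their cells were kept. Of the posterior barcodes, 45.4% were over the limit of 20% mitochondrial UMIs, against 27.2% to 27.9% in the other libraries, and 33 barcode sequences occurred in more than 1 library. The 19777 cells formed 25 clusters, placed in 14 classes by marker genes. The class names end in "-like", since they were rebuilt here from markers and may differ from the study's own. Pituicytes, the glia of the posterior lobe, had 1107 cells in the posterior library and 0 in the anterior one. The summed level of the 7 folliculostellate markers in folliculostellate-like cells was 6387 CPM in the posterior library, 9357 in the anterior library, and 9374 and 9284 in lanes 1 and 2. CPM is the number of UMIs of a gene in 1000000 UMIs of all cells of the class in that library. It is given for classes with at least 20 cells in a library, and the intervals beside it are exact 95% Poisson intervals that cover counting error only.

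Metalloproteinases of the MMP, ADAM and ADAMTS families cut matrix proteins, growth factors and receptors at the cell surface and outside it, and the TIMP proteins block their catalytic site. The inhibitors differ in reach. TIMP1 is a poor inhibitor of the membrane-anchored MMP14, TIMP2 bridges MMP14 and the proform of MMP2 so that MMP2 can be activated at the cell surface, and TIMP3 stays bound to the matrix and also blocks ADAM17 and several ADAMTS proteases. ADAMTS1 cleaves the proteoglycans versican and aggrecan. All of this concerns the proteins, whereas the values here are of messenger RNA.

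RefSeq's promoter table for the GRCr8 build held entries for 4 of the 6 members, Timp1, Timp2, Timp3 and Adamts1. The 250 bases before the annotated start are shown for Timp1, which had its highest level in folliculostellate-like cells, and for Timp3 and Adamts1, which were both high in endothelial-like and pericyte-like cells. They lie on the minus strand at chrX:3771123-3771372 (Timp1), chr7:19459559-19459808 (Timp3) and chr11:38427385-38427634 (Adamts1). Capitals mark matches, on either strand, to GGGCGG (a GC box), TGAGTAA (a motif like the AP-1 site TGANTCA) and TATAAA.
Timp1: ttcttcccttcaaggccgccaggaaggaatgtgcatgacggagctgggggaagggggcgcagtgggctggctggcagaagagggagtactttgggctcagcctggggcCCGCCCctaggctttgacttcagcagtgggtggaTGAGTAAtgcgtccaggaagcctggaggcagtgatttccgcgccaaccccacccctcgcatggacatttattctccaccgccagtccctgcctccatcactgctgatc
Timp3: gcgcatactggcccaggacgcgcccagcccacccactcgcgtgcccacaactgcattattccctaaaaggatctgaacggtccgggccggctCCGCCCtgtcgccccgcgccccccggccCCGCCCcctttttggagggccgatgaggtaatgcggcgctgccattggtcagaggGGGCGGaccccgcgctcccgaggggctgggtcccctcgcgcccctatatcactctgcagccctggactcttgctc
Adamts1: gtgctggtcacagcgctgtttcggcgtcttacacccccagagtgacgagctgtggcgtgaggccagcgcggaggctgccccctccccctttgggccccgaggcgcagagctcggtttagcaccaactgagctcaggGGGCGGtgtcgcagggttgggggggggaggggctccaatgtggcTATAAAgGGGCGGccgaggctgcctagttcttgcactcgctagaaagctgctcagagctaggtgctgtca
GGGCGG, found in 30.5% of the 33469 promoter windows of this length, lay 142 to 137 bases before the Timp1 start on the opposite strand. In Timp3 it lay 158 to 153 and 130 to 125 bases before the start on the opposite strand and 75 to 70 bases on the same strand. In Adamts1 it lay 114 to 109 and 63 to 58 bases before the start on the same strand. TGAGTAA lay 108 to 102 bases before the Timp1 start and was in 2.38% of windows, and TATAAA lay 70 to 65 bases before the Adamts1 start and was in 12.9% of windows. TGANTCA, in 6.34% of windows, was in the window of none of the 4 members. GC content was 61.2% for Timp1, 69.6% for Timp3, 65.2% for Adamts1 and 72.0% for Timp2, against a median of 51.2% over all windows. A match is a property of these letters and not a site of binding. In the same annotation Timp1 lies within the synapsin gene Syn1, Timp3 lies within Syn3, and Cep295nl lies within Timp2. The use of strand in counting is not given in the sources used here. The counts of Timp1, Timp2 and Timp3 are uncertain to the extent that reads of these neighbours could be exchanged with theirs. In classes with at least 20 cells, the counted level of Syn3 was at most 7.17 CPM and that of Cep295nl at most 7.17 CPM in any library. The level of Syn1, within which Timp1 lies, is not given here.

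Timp1, a soluble inhibitor that also signals to cells through the tetraspanin CD63, had its highest level in folliculostellate-like cells. It was at 2142 CPM in the posterior library (2096 to 2188), 2463 in the anterior library (2430 to 2497), 2371 in lane 1 (2338 to 2404) and 2248 in lane 2 (2213 to 2284). Every library of folliculostellate-like cells lay above every library of every other class. With each cell thinned to 2000 UMIs, a Timp1 UMI was found in 86.1% of posterior, 94.1% of anterior, 91.7% of lane 1 and 91.7% of lane 2 folliculostellate-like cells, and unthinned in 93.6%, 97.8%, 97.2% and 97.8% of them. In corticotroph-like cells, among the classes with least Timp1, the thinned shares were 3.60%, 1.27%, 1.80% and 1.54% and the unthinned ones 10.4%, 6.77%, 7.60% and 7.25%. The median depths behind these unthinned shares were 7916, 6386, 5854.5 and 6071 UMIs in folliculostellate-like cells and 12561, 6903, 7440 and 7428 UMIs in corticotroph-like cells, again as posterior, anterior, lane 1 and lane 2.

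The stromal classes came next for Timp1. Fibroblast-like cells, which build collagen matrix, had 598 CPM in the posterior library and 667 and 751 in lanes 1 and 2; the anterior library held only 9 of them and is left out. Pericyte-like cells, the contractile cells around capillaries, had 284 CPM in the posterior library (25 cells) and 254 in lane 1 (20 cells), and endothelial-like cells had 165 CPM in the posterior library, 166 in the anterior, and 197 and 162 in the lanes. Ordered by the mean over preparations, folliculostellate-like, fibroblast-like, Schwann-like, pericyte-like, endothelial-like and gonadotroph-like cells did not overlap with their next neighbours in their ranges over the 2 preparations, though macrophage-like cells, lower in the order, ranged from 28.8 to 144 CPM and so spanned gonadotroph-like cells. Pituicyte-like cells were far down this order, with 51.1 CPM in the posterior library and 67.2 and 43.8 in the lanes.

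Hormone cells carried low levels of Timp1, and these differed between classes. Gonadotroph-like cells had 135, 122, 115 and 139.7 CPM in the posterior, anterior, lane 1 and lane 2 libraries. Lactotroph-like cells had 103, 80.6, 69.96 and 65.1 CPM, somatotroph-like cells 16.2 to 21.4 CPM over the 4 libraries, and corticotroph-like cells 9.71 to 22.1 CPM. Thyrotroph-like cells were at 30.3 to 54.9 CPM in 3 libraries and at 201 CPM in the posterior library, where 63 UMIs came from 12.5% of the 24 cells and the summed folliculostellate markers were at 143 CPM, against 25.7 to 32.3 CPM in the others. Macrophage-like cells had 29.8 CPM of Timp1 in the posterior library, 26.5 in the anterior, 202 in lane 1 and 91.3 in lane 2, and the summed folliculostellate markers in them moved alike, at 103, 89.6, 437 and 182 CPM; the part of these transcripts in the Timp1 level was not tested. The lanes hold the same suspension, and their macrophage-like cells differed in Timp1 by a ratio of 2.21 (1.73 to 2.82).

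Among lactotroph-like cells, Timp1 was highest in a small cluster marked by the peptide gene Cartpt. There it was at 389 CPM in the posterior library (43 cells), 308 in the anterior (153 cells), 357 in lane 1 (71 cells) and 315 in lane 2 (60 cells). A cluster marked by the receptor gene Alk had 135, 167, 182 and 163 CPM in the same libraries, and the other lactotroph clusters had 29.7 to 48.6 CPM. All 4 libraries gave this order without overlap. Prolactin messenger RNA made up 48.7% of all lactotroph UMIs in the posterior library, 47.95% in the anterior, and 50.3% and 50.5% in the lanes, which lowers the CPM of every other gene in these cells. With Prl UMIs left out of the total, Timp1 in the Cartpt cluster was 712, 575, 686 and 590 CPM, and in the clusters marked by neither gene 61.3 to 93.5 CPM. In all lactotroph-like cells together it was then 201, 155, 141 and 131 CPM. Gonadotroph-like cells, whose own hormone UMIs were not left out, had 135, 122, 115 and 139.7 CPM, so the order of these classes depends on this choice. Folliculostellate markers summed to 12.3 to 19.4 CPM in the Cartpt cluster and to 11.3 to 20.5 CPM in the other lactotroph clusters. The summed fibroblast markers differed between clusters: they were at 618, 478, 592 and 568 CPM in the Cartpt cluster, at 116 to 146 CPM in the Alk cluster and at 2.06 to 12.03 CPM in the rest. Most of this was the small proteoglycan gene Dcn, at 576, 426, 507 and 545 CPM in the Cartpt cluster. The remainder came from other fibroblast markers, while Col1a1 was at 0 in all 4 libraries. Mmp2 was at 1.62, 4.10, 1.93 and 7.19 CPM in the Cartpt cluster, on 2, 9, 2 and 7 UMIs, and at most at 0.493 CPM in the other lactotroph clusters. The part of transcripts from fibroblasts in the Timp1 and Mmp2 levels was not tested.

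**Figure D1:**
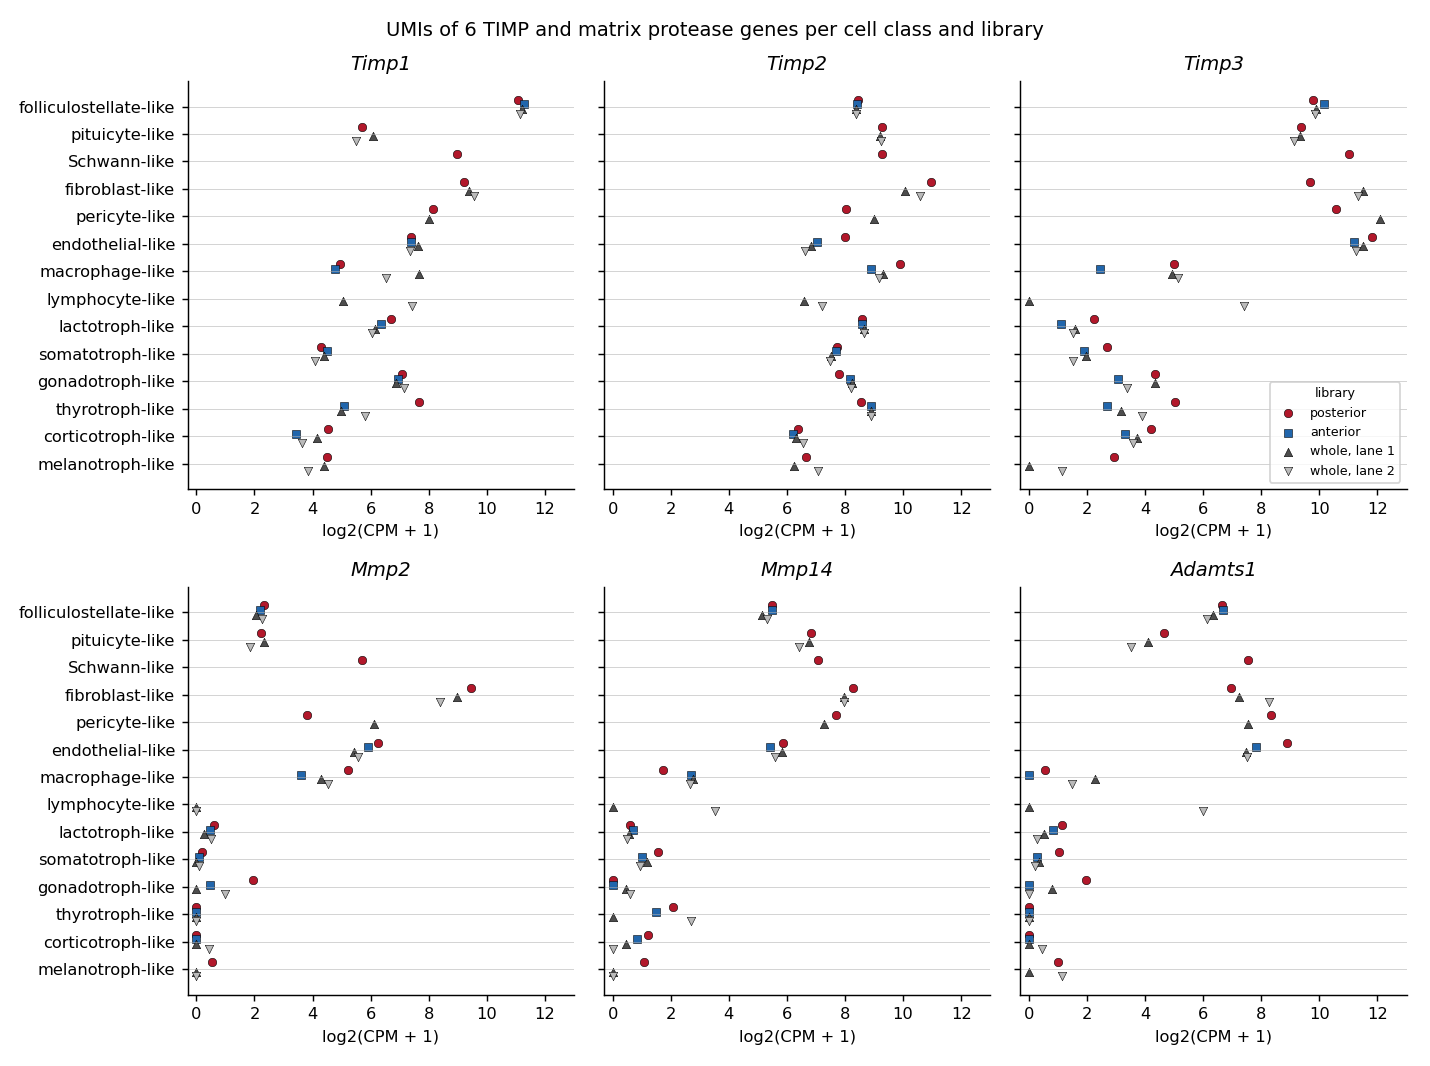
Level of each of the 6 genes in 14 cell classes, 1 panel per gene, as log2(CPM + 1) on the horizontal axis with 1 point per library that held at least 20 cells of the class. Timp1 peaks in the top row, folliculostellate-like cells (2142 to 2463 CPM), Mmp2 in fibroblast-like cells (337 to 704 CPM), and Timp2 is the member with no class near 0.

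Timp2, the inhibitor that takes part in MMP2 activation, was the most widely spread member, with at least 73.2 CPM in every class of hormone cells in every library. Fibroblast-like cells had the highest level, at 1997 CPM in the posterior library and 1075 and 1522 in lanes 1 and 2. Macrophage-like cells had 948 CPM in the posterior library, 473 in the anterior, and 638 and 577 in the lanes, and pituicyte-like cells had 624 CPM in the posterior library and 593 and 609 in the lanes. These last classes overlapped in their ranges over preparations, and so did pituicyte-like with Schwann-like cells. Lactotroph-like cells had 387, 385, 406 and 405 CPM of Timp2 in the posterior, anterior, lane 1 and lane 2 libraries, and folliculostellate-like cells had 352, 339.9, 336 and 329 CPM. With Prl UMIs left out of the total, lactotroph-like cells had 754, 739, 817 and 819 CPM. That lay above pituicyte-like cells in the posterior library and both lanes, though hormone UMIs were not left out for other classes. Corticotroph-like cells had 73.2 to 92.4 CPM, and thyrotroph-like cells had 373 CPM in the posterior library and 469 to 478 in the other 3. In contrast to Timp1, Timp2 was lower in level in the Cartpt cluster, at 222 to 316 CPM, than in the other lactotroph clusters, at 354 to 476 CPM, in all 4 libraries.

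Macrophage-like cells fell into clusters with different Timp2 levels. The cluster with high complement C1q genes had 1170 CPM in the posterior library (197 cells) and 1242 and 1195 CPM in lanes 1 and 2 (41 and 36 cells). The cluster with high MHC class II genes had 384 CPM in the posterior library, 373 in the anterior, and 443 and 403 in the lanes. The clusters did not overlap, and the anterior library held too few C1q-marked cells for a value. C1q-marked cells were 197 of the 274 macrophage-like cells in the posterior library, 41 of 191 in lane 1 and 36 of 194 in lane 2.

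Timp3, the matrix-bound inhibitor, was led by cells of the vessel wall in the mean over preparations, and in the whole gland fibroblast-like cells stood beside endothelial-like cells. Endothelial-like cells had 3623 CPM in the posterior library, 2324 in the anterior, 2899 in lane 1 and 2427 in lane 2. Pericyte-like cells had 1526 CPM in the posterior library (25 cells) and 4386 CPM in lane 1 (20 cells). These pericyte-like levels mix sub-clusters that differed in Timp3, given below with those of fibroblast-like cells. Fibroblast-like cells had 820 CPM in the posterior library and 2881 and 2600 CPM in lanes 1 and 2, and Schwann-like cells, the glia of peripheral nerve, had 2062 CPM in the posterior library. After thinning, 97.8% of posterior, 90.1% of anterior, 88.4% of lane 1 and 90.5% of lane 2 endothelial-like cells had a Timp3 UMI. Folliculostellate-like cells had 878 CPM in the posterior library, 1139.96 in the anterior, and 951 and 921 in the lanes, with thinned shares of 50.3%, 57.7%, 51.4% and 54.9% and unthinned shares of 71.2%, 82.2%, 74.4% and 74.7%. Pituicyte-like cells had 666 CPM in the posterior library and 648 and 554 in the lanes. Lactotroph-like cells lacked it nearly entirely, at 3.74, 1.17, 2.03 and 1.84 CPM, with thinned shares of 0.224%, 0.405%, 0.274% and 0.615% in the posterior, anterior, lane 1 and lane 2 libraries. In their ranges over preparations, endothelial-like cells stood clear of Schwann-like cells, and overlapped with pericyte-like cells. Fibroblast-like cells ranged from 998 CPM (dissected) to 2761 CPM (whole), and overlapped with pericyte-like, endothelial-like, Schwann-like and folliculostellate-like cells. Folliculostellate-like cells stood clear above pituicyte-like cells in these pooled levels, but not in values per cell. The median cell had 339 CPM of Timp3 among folliculostellate-like and 511 CPM among pituicyte-like cells, and the thinned share was 54.1% of folliculostellate-like and 62.7% of pituicyte-like cells. The mean of per-cell CPM was 625 in folliculostellate-like and 585 in pituicyte-like cells.

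Fibroblast-like cells were not uniform in the TIMPs. Splitting the stromal clusters, a step added after the data were seen, gave a fibroblast sub-cluster with Pi16, Smoc2 and Apod among its leading genes and 113 cells in the posterior library, and another with Amtn, Tnnt2 and Coch among its leading genes and 10 cells there, 8 in the anterior library and 19 and 14 in lanes 1 and 2. Timp2 was at 2110, 1869 and 2734 CPM (posterior, lane 1 and lane 2) in the sub-cluster with Pi16, and at 732, 628 and 708 CPM in the one with Amtn. Timp3 ran the other way, at 788, 1054 and 504 CPM in the sub-cluster with Pi16 and 1181, 3911 and 4007 CPM in the one with Amtn. Pericyte markers summed to 201, 239 and 264 CPM in the sub-cluster with Pi16 and to 867, 1390 and 1062 CPM in the one with Amtn; their part in the difference was not tested. The whole-gland values of the sub-cluster with Pi16 rest on 11 and 6 cells, so the posterior library carries most of the comparison. Pericyte-like cells were not uniform in Timp3 either. The sub-cluster with Inmt among its leading genes had 3504 CPM in the posterior library (4 cells) and 4100 in the anterior (16 cells). In lanes 1 and 2 it had 5429 and 4197 CPM (15 and 18 cells). The sub-cluster with Tesc had 951 CPM (posterior, 21 cells), 885 CPM (lane 1, 5 cells) and 1556 CPM (lane 2, 1 cell). The part of this mix in the pericyte-like Timp3 level was not tested.

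Within folliculostellate-like cells Timp1 and Timp3 were set differently. The largest cluster (cluster 4, 1523 cells) had 2603 CPM of Timp1 in the posterior library, 2765 in the anterior, and 2791 and 2724 in the lanes. A cluster of 532 cells marked by the keratin gene Krt17 had 1968, 2441, 2263 and 2178 CPM, and the remaining cluster (cluster 7, 800 cells) had 1644, 1567, 1649 and 1402 CPM. For Timp3 the Krt17 cluster stood at the top, with 1207 CPM in the posterior library, 2039 in the anterior, and 1811 and 1664 in the lanes. The largest cluster had 483, 679, 560 and 575 CPM of Timp3 and the remaining one 159, 274, 205 and 255 CPM. For each gene the 3 clusters kept one order in all 4 libraries. Adamts1 had yet another pattern, at 151, 164, 135 and 123 CPM in the largest cluster, 77.6, 49.7, 37.1 and 32.4 CPM in the Krt17 cluster and 63.2, 34.4, 37.7 and 23.6 CPM in the remaining one, where the last 2 clusters overlapped. The clusters were made without the 6 members and the list genes, from other genes of the same cells. They differed in depth, with medians of 13457.5 UMIs in the Krt17 cluster, 6434 in cluster 4 and 4543 in cluster 7. Prl was at 28171.5, 26488.5 and 44776.9 CPM in the same clusters. The part of depth and of such transcripts in these orders was not tested.

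**Figure D2:**
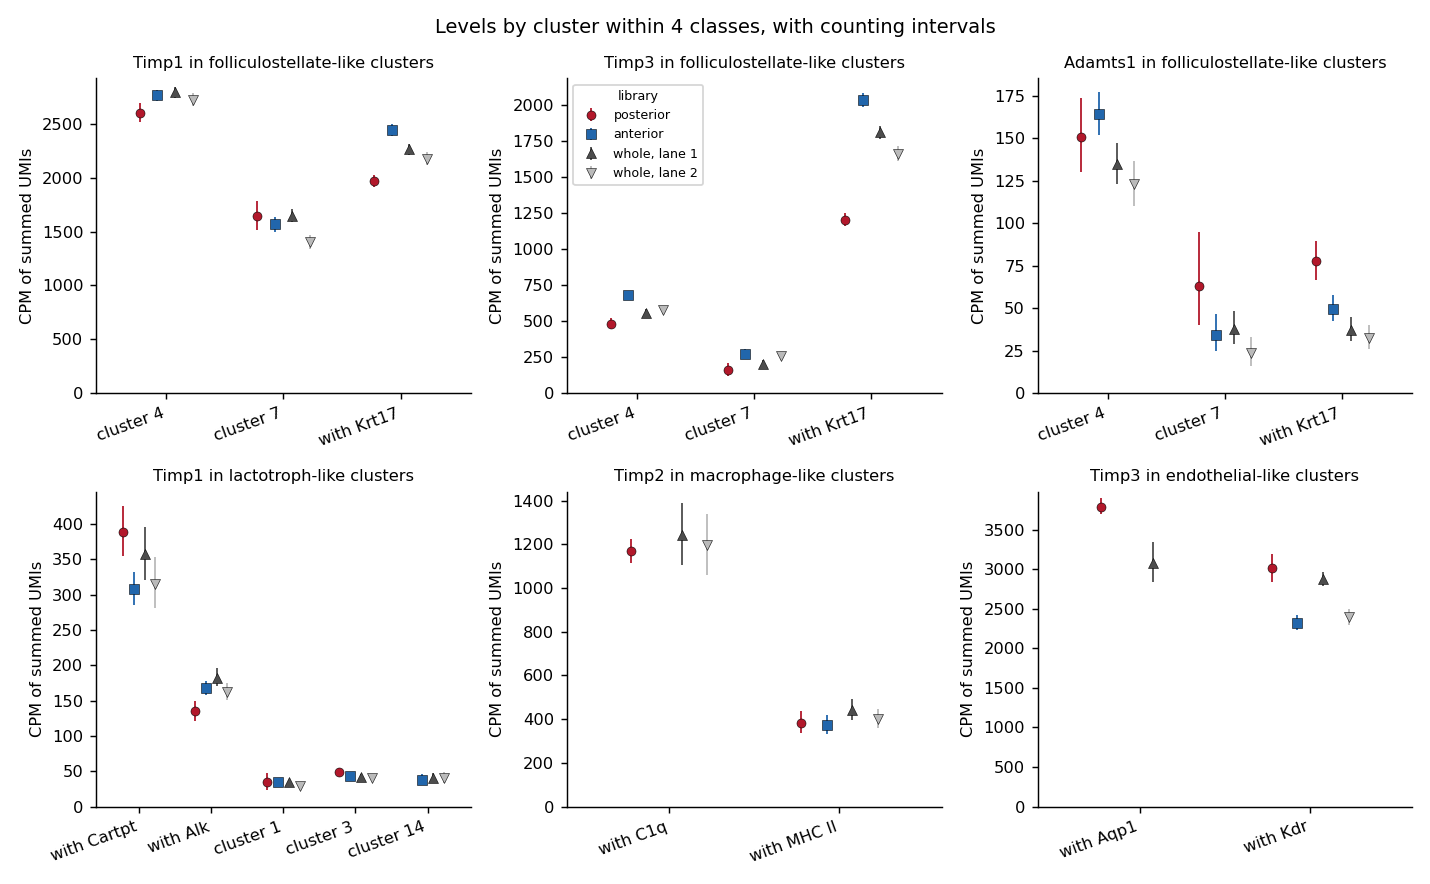
Level in CPM of members by cluster within folliculostellate-like, lactotroph-like, macrophage-like and endothelial-like cells, with 1 point per library and bars for the 95% counting interval. In folliculostellate-like cells the Krt17 cluster has the highest Timp3 (1207 to 2039 CPM) and the largest cluster has the highest Timp1 (2603 to 2791 CPM).

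The makeup of the TIMP transcripts differed by class. Of the UMIs of the 3 TIMPs together, Timp1 made up 63.5% in posterior, 62.5% in anterior, 64.8% in lane 1 and 64.3% in lane 2 folliculostellate-like cells. Timp3 made up 89.6%, 88.7%, 90.3% and 90.3% in endothelial-like cells, and Timp2 made up 78.4%, 82.5%, 84.9% and 85.8% in lactotroph-like cells. These counts are of tags near the transcript end and do not scale with transcript length. These 3 classes thus had different leading TIMPs, in all 4 libraries, but other classes shared a leader with them or changed it between libraries. Timp2 also led in macrophage-like cells, at 94.0%, 93.9%, 73.4% and 82.1%. In fibroblast-like cells Timp2 led in the posterior library (58.5%) and Timp3 in the lanes (62.3% and 53.4%).

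Mmp2, the gelatinase that degrades denatured collagen and basement membrane collagen, was a gene of fibroblast-like cells. They had 704 CPM in the posterior library and 502 and 337 CPM in lanes 1 and 2, and the share of them with a UMI was 67.0%, 55.2% and 50% after thinning and 86.2%, 73.3% and 90.0% before it. Endothelial-like cells followed at 75.2 CPM in the posterior library, 58.7 in the anterior, and 42.1 and 46.7 in the lanes. The ranges over preparations did not overlap between fibroblast-like cells and the next class. Folliculostellate-like cells had 4.05, 3.55, 3.12 and 3.79 CPM, which rest on 16, 30, 26 and 26 UMIs in the posterior, anterior, lane 1 and lane 2 libraries. The summed fibroblast markers there were at 53.4, 39.5, 34.0 and 41.5 CPM, and Prl, the prolactin gene of lactotrophs, was at 6616, 37869, 33697 and 30332 CPM; the part of such transcripts from other cells in this low Mmp2 level was not tested. Thyrotroph-like cells had 0 UMIs in all 4 libraries, and no class of hormone cells passed 2.90 CPM. Between the macrophage clusters, Mmp2 was at 43.4, 43.9 and 53.0 CPM (posterior, lane 1 and lane 2) in the C1q-marked one and at 18.4, 10.3 and 13.8 CPM in the one marked by MHC class II genes.

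Mmp14, the membrane-anchored activator of MMP2, was shared by fibroblasts, pericytes and glia. Fibroblast-like cells had 306 CPM in the posterior library and 251 and 250.4 in lanes 1 and 2. Pituicyte-like cells had 113 CPM in the posterior library and 108 and 85.1 in the lanes, and folliculostellate-like cells had 43.8, 43.9, 34.4 and 38.9 CPM in the posterior, anterior, lane 1 and lane 2 libraries. By the mean over preparations endothelial-like cells lay between these glial classes, at 57.6, 41.3, 55.3 and 47.7 CPM, and hormone cells were at 5.49 CPM or below. In the order over classes, fibroblast-like, pericyte-like, pituicyte-like, endothelial-like and folliculostellate-like cells each stood clear of the next class in their ranges over the 2 preparations. The exception among the upper classes was Schwann-like cells, which overlapped with pituicyte-like cells. Within pituicyte-like cells of the posterior library, the larger cluster had 120 CPM of Mmp14, 711 of Timp3 and 634 of Timp2, and a shallow cluster marked by Rax, with a median of 1945.5 UMIs a cell, had 65.1, 363 and 556 CPM of the same genes.

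Adamts1, the protease that trims versican, had its highest mean over preparations in endothelial-like cells, at 467 CPM in the posterior library, 227 in the anterior, and 175 and 182 in the lanes. That lead came from the dissected glands. In the whole gland fibroblast-like cells had 218 CPM and pericyte-like cells 189 CPM, against 178 CPM in endothelial-like cells. Fibroblast-like cells had 125 CPM in the posterior library and 151 and 308 CPM in lanes 1 and 2, and pericyte-like cells had 323 CPM in the posterior library and 186 CPM in lane 1. Folliculostellate-like cells had 99.7, 101, 79.5 and 68.5 CPM, and pituicyte-like cells 24.2 CPM in the posterior library and 16.3 and 10.3 in the lanes. Endothelial-like, pericyte-like, fibroblast-like and Schwann-like cells overlapped in their ranges over preparations, as did Schwann-like with folliculostellate-like cells, while folliculostellate-like cells lay above pituicyte-like cells without overlap. Hormone cells were at 2.90 CPM or below, and thyrotroph-like cells had 0 UMIs in all 4 libraries. Among endothelial-like cells a cluster marked by Aqp1 had 542 CPM of Adamts1 in the posterior library (201 cells) and 261 in lane 1 (27 cells). The cluster marked by Kdr had 199, 227, 164 and 159 CPM in the posterior, anterior, lane 1 and lane 2 libraries. Pericyte markers summed to 3173 CPM (posterior) and 3758 CPM (lane 1) in the Aqp1 cluster and to 139 to 675 CPM in the Kdr cluster, and fibroblast markers to 2791 and 1359 CPM against 80.6 to 616 CPM; their part in the level was not tested.

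A gene's level in a class, the number of cells in it and their UMIs per cell together set where its counted transcripts are found. Depth differed between classes, with medians of 15134.5 UMIs in lactotroph-like and 6386 UMIs in folliculostellate-like cells of the anterior library. Folliculostellate-like cells, 8.51% of posterior, 15.4% of anterior, 16.7% of lane 1 and 15.5% of lane 2 cells, held 71.2%, 82.9%, 83.9% and 82.3% of the Timp1 UMIs. Lactotroph-like cells held 62.5%, 59.3% and 59.96% of Timp2 UMIs in the anterior, lane 1 and lane 2 libraries, although other classes had higher CPM when Prl UMIs were counted in the total. In the posterior library pituicyte-like cells led with 29.6% of Timp2 UMIs, and lactotroph-like cells held 24.1%. Fibroblast-like cells were 3.21% of posterior cells and held 64.0% of that library's Mmp2 UMIs. In lanes 1 and 2 they were 0.542% and 0.407% of cells and held 34.1% and 21.2%. Endothelial-like cells held 15.3% of Mmp2 UMIs in the posterior library, 40.3% in the anterior, and 32.7% and 27.3% in the lanes, and so led in the anterior library and in lane 2. For Timp3 and Adamts1 the leading class also changed with the tissue: endothelial-like cells held 37.0% of posterior Timp3 UMIs and 50.4% of posterior Adamts1 UMIs, while folliculostellate-like cells held 75.9% and 74.3% in the anterior library. Pituicyte-like cells held 60.4% of Mmp14 UMIs in the posterior library, and folliculostellate-like cells 73.8% in the anterior one. These shares move with the cells that dispersal released, so they describe the libraries and not the gland.

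**Figure D3:**
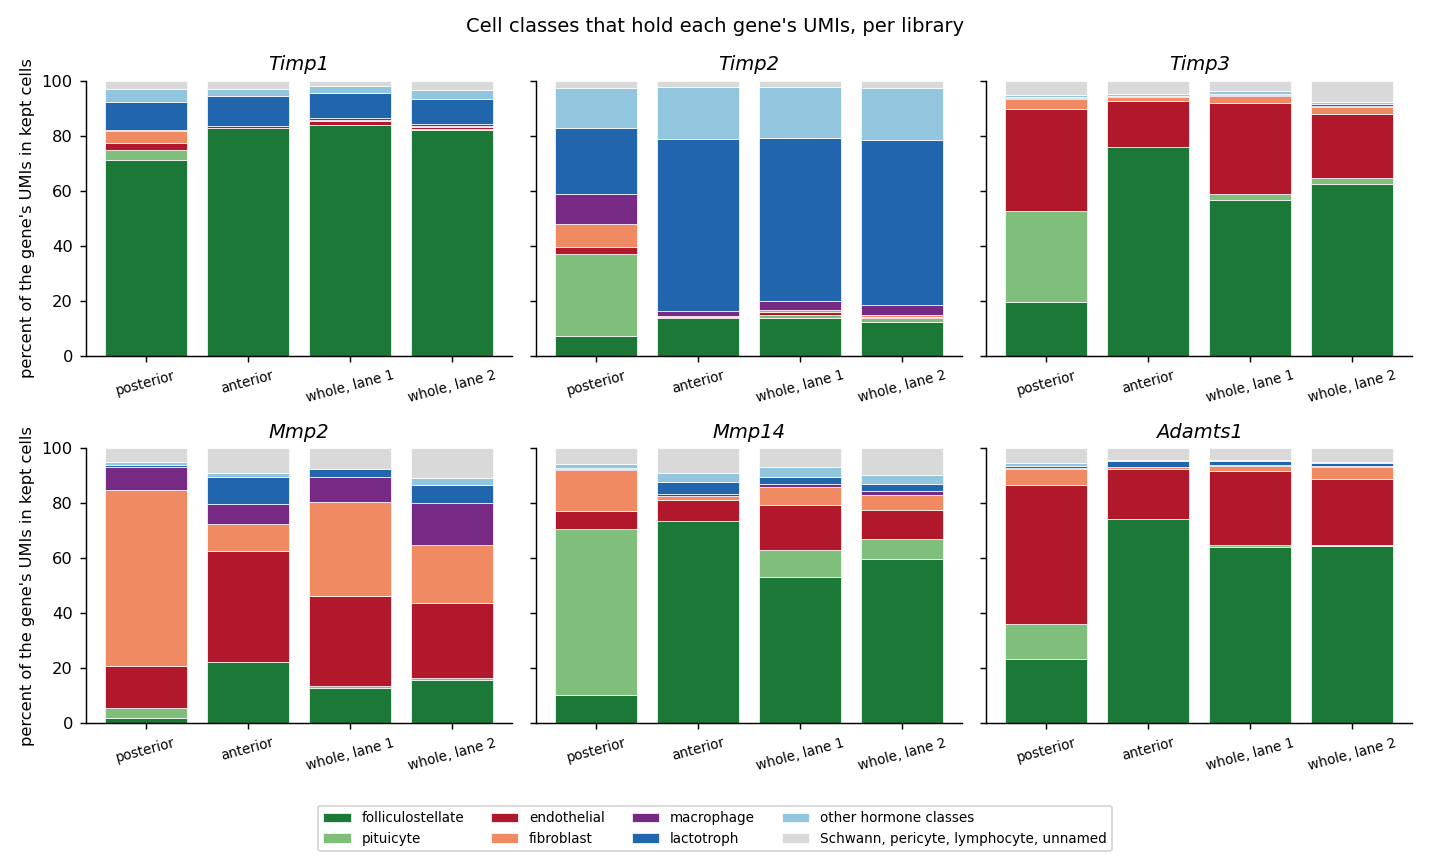
Percent of each gene's UMIs in kept cells that fell in each class, as 1 stacked bar per library. Folliculostellate-like cells hold 71.2% to 83.9% of Timp1 UMIs in every library, while for each of the other 5 genes the leading holder in the posterior library differs from that in the anterior one.

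Differences between classes were tested on UMI sums per class and preparation, with the edgeR quasi-likelihood test over 14838 genes, all 6 members included. Calls needed both an adjusted p (Benjamini-Hochberg, over all genes) under 0.05 and a log2 fold change of 1 or more in size. Values are log2 fold changes ± SE, with n = 2 preparations for each class, and 10 residual degrees of freedom shared by the 11 classes.

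Folliculostellate-like cells against hormone cells showed 5 of the 6 members higher and 0 lower, where 23.8% of all genes tested were higher and 10.5% lower. In folliculostellate-like sums Timp1 was at 2463 CPM (dissected) and 2315 CPM (whole), against a mean of 53.2 CPM in both preparations over the 5 hormone classes, a log2 fold change of 5.79 ± 0.17 (adjusted p = 4.23e-19, edgeR). Timp3 was higher by 7.44 ± 0.19 (adjusted p = 1.67e-20, edgeR), at 1139.96 and 937 CPM in folliculostellate-like cells against means of 5.13 and 8.29 CPM over the hormone classes. Mmp14 was higher by 5.67 ± 0.17, Mmp2 by 4.67 ± 0.42 and Adamts1 by 8.87 ± 0.29 (largest adjusted p = 1.29e-09, edgeR). Timp2 was not called, at 339.9 and 333 CPM in folliculostellate-like cells against 284 and 289 CPM in hormone cells (0.28 ± 0.13, adjusted p = 0.0647, edgeR). The fitted values of Mmp2 and Adamts1 depend on the prior count, because thyrotroph-like cells had none of their UMIs. With the hormone cells of each library pooled, the folliculostellate-like level of Adamts1 was 88.0 times as high in the posterior library (58.3 to 139), 180.4 times in the anterior (125 to 269), 209 times in lane 1 (133 to 349) and 345 times in lane 2 (180 to 758). For Mmp2 these ratios were 8.58 (3.66 to 21.1), 12.7 (6.61 to 25.3), 25.9 (10.4 to 77.1) and 11.4 (5.84 to 23.2), with 6 to 15 UMIs in hormone cells of a library.

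Pituicyte-like cells against hormone cells also had 5 of 6 members higher and 0 lower (20.7% of all genes higher, 13.9% lower), but the member that missed the call was Timp1. In pituicyte-like sums it was at 51.1 CPM (dissected) and 56.9 CPM (whole), against the same 53.2 CPM in hormone cells (0.20 ± 0.30, adjusted p = 0.596, edgeR). The 53.2 CPM is a plain mean over the 5 hormone classes, whereas the fit averages them on the log scale. Over pooled hormone cells the Timp1 ratio was 0.689 in the posterior library (0.620 to 0.766), 1.22 in lane 1 (0.838 to 1.72) and 0.860 in lane 2 (0.500 to 1.38). Mmp14 was higher by 6.95 ± 0.17 (adjusted p = 1.32e-20, edgeR), Timp3 by 6.63 ± 0.21, Adamts1 by 6.58 ± 0.51 and Mmp2 by 4.33 ± 0.54. Here too the fitted values of Adamts1 and Mmp2 depend on the prior count. With hormone cells pooled, the pituicyte-like level of Adamts1 was 21.3 times as high in the posterior library (13.95 to 34.0), 42.7 times in lane 1 (16.2 to 102) and 51.9 times in lane 2 (11.7 to 186). For Mmp2 the ratios were 7.82 (3.76 to 17.8), 33.8 (3.34 to 189) and 7.79 (0.185 to 50.6) in the same libraries, those of the lanes on 2 and 1 UMIs in pituicyte-like cells. Timp2 was higher by 1.02 ± 0.14 (adjusted p = 6.84e-07, edgeR), at 624 and 599.7 CPM in pituicyte-like cells against 284 and 289 CPM. That call rests on the size limit: with edgeR refitted, the value fell under 1 without the posterior library (0.94), without either lane (0.98 and 0.99), with doublets kept (0.85), with a stricter cell filter (0.69), and with other size factors (0.998). Its adjusted p passed in each of these.

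The direct comparison of folliculostellate-like with pituicyte-like cells separated the glia by Timp1. Timp1 was higher in folliculostellate-like cells, at 2463 and 2315 CPM against 51.1 and 56.9 CPM in pituicyte-like cells (5.59 ± 0.32, adjusted p = 5.10e-13, edgeR). Adamts1 was also higher (2.29 ± 0.25, adjusted p = 4.27e-08, edgeR), at 101 and 74.5 CPM against 24.2 and 13.7 CPM. Mmp14 was lower (-1.28 ± 0.13, adjusted p = 9.76e-09, edgeR), at 43.9 and 36.4 CPM in folliculostellate-like against 113 and 97.9 CPM in pituicyte-like cells. That made 2 members higher and 1 lower, where 18.3% of all genes were higher and 11.7% lower. Timp2 (-0.74 ± 0.18) and Timp3 (0.81 ± 0.23) passed the adjusted p but not the size limit, and Mmp2 passed neither (0.33 ± 0.30, adjusted p = 0.360, edgeR). As given above, the median cell and the thinned share put Timp3 lower in folliculostellate-like than in pituicyte-like cells. Without the Krt17 cluster the Timp3 difference was -0.14, so its sign rests on that cluster. With a stricter cell filter it was 1.12, and without the posterior library 1.002, both past the limits.

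Against fibroblast-like cells, folliculostellate-like cells had 1 member higher and 3 lower (12.9% of all genes higher, 10.8% lower). Timp1 was higher by 1.92 ± 0.28 (adjusted p = 5.87e-06, edgeR), at 2463 and 2315 CPM in folliculostellate-like against 599 and 703 CPM in fibroblast-like cells. Mmp2 was lower by a log2 fold change of -7.23 ± 0.16 (adjusted p = 1.57e-19, edgeR), at 3.55 and 3.42 CPM against 686 and 431 CPM. Mmp14 (-2.77 ± 0.15) and Timp2 (-2.25 ± 0.19) were lower as well. Timp3 (-0.67 ± 0.24) and Adamts1 (-0.66 ± 0.27) were not called. Without the posterior library, which held 123 of the fibroblast-like cells, they were called lower at -1.13 and -1.35, but the dissected fibroblast-like sum then held only 9 cells, under the minimum of 50. Without the Krt17 cluster Timp3 was called lower at -1.61. Folliculostellate markers in fibroblast-like cells, mostly Edn3, summed to 2051 CPM in the posterior library and 1304 and 1512 CPM in the lanes.

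Against endothelial-like cells, folliculostellate-like cells had 2 members higher and 3 lower (18.2% of all genes higher, 19.0% lower). Timp1 was higher by 3.86 ± 0.28 (adjusted p = 2.08e-11, edgeR) and Timp2 by 1.16 ± 0.19 (adjusted p = 1.27e-05, edgeR). Timp3 was lower by a log2 fold change of -1.43 ± 0.22 (adjusted p = 7.10e-06, edgeR), at 1139.96 and 937 CPM in folliculostellate-like against 3188 and 2721 CPM in endothelial-like cells. Mmp2 (-3.86 ± 0.18) and Adamts1 (-1.55 ± 0.18) were lower too, and Mmp14 was not called (-0.31 ± 0.14, adjusted p = 0.0622, edgeR). Without the Aqp1 cluster of endothelial-like cells the Adamts1 value was -0.98, under the size limit.

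Fibroblast-like against endothelial-like cells had 4 members higher and 0 lower (9.50% of all genes higher, 13.4% lower). Timp2 was higher by 3.40 ± 0.20 (adjusted p = 4.84e-12, edgeR), at 1938 and 1266 CPM in fibroblast-like cells. Mmp2 was higher by 3.37 ± 0.13 (adjusted p = 1.38e-14, edgeR), Mmp14 by 2.46 ± 0.16 and Timp1 by 1.94 ± 0.30. Timp3 (-0.76 ± 0.24) and Adamts1 (-0.89 ± 0.25) were not called, and without the posterior library, with the same 9 dissected fibroblast-like cells, their signs turned, to 0.05 and 0.32. Without lane 2 Adamts1 was called lower at -1.11.

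**Figure D4:**
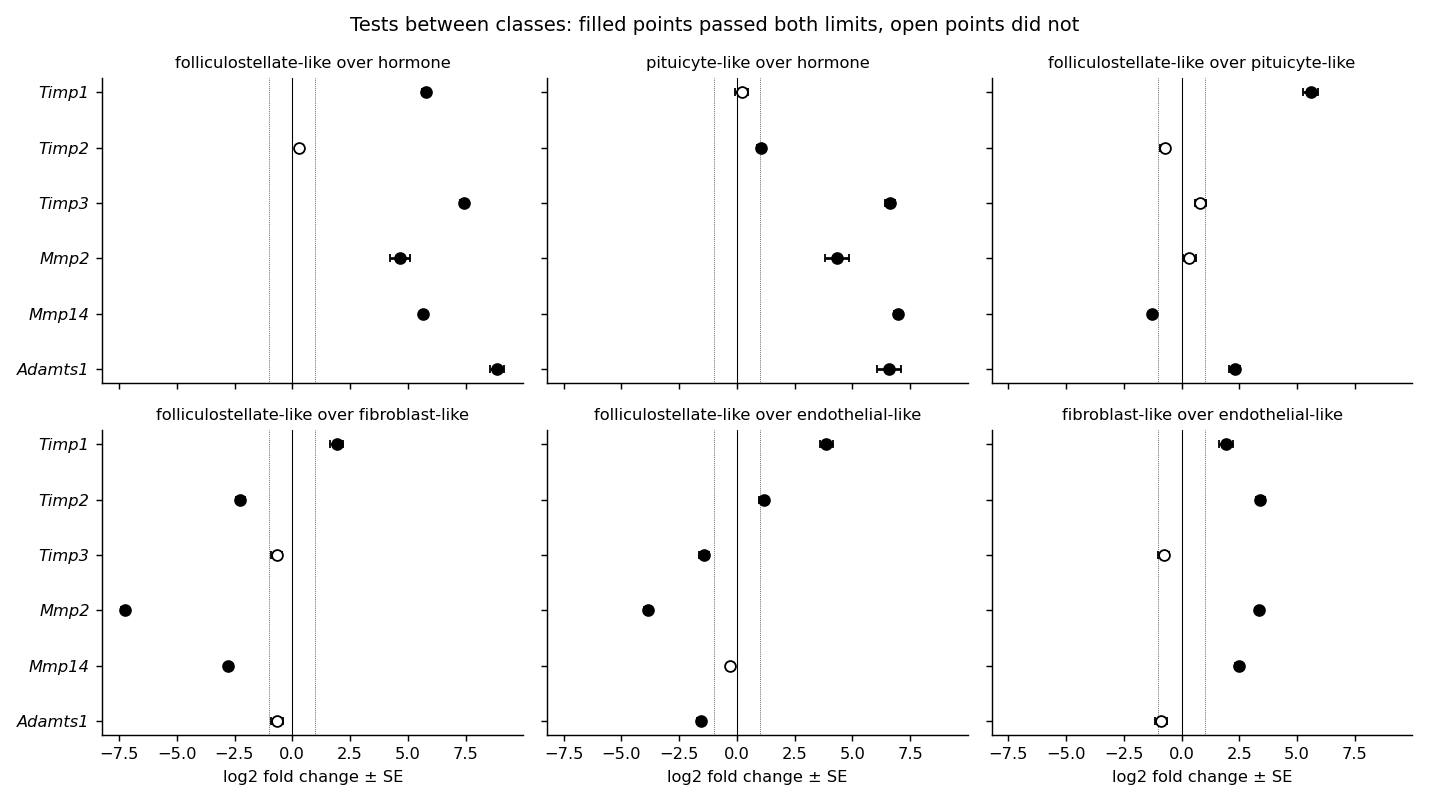
Log2 fold change ± SE of the 6 members in the 6 class comparisons, 1 panel per comparison, filled where the adjusted p was under 0.05 and the size at least 1, with dotted lines at 1 and -1. Timp1 lies at 5.59 between folliculostellate-like and pituicyte-like cells, and Mmp2 at -7.23 between folliculostellate-like and fibroblast-like cells.

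The 2 lobes were compared within a class by the ratio of CPM between the posterior and the anterior library, with no test, since each lobe has 1 library. The intervals cover counting error only, and lanes 1 and 2 hold the same suspension. Lane 1 over lane 2 in folliculostellate-like cells was 1.05 for Timp1 (1.03 to 1.08), 1.03 for Timp3 (0.999 to 1.07) and 1.16 for Adamts1 (1.03 to 1.31). An interval that leaves out 1 thus does not by itself mark a difference between lobes. In folliculostellate-like cells the posterior over anterior ratio was 0.869 for Timp1 (0.848 to 0.892), 1.03 for Timp2 (0.970 to 1.10), 0.998 for Mmp14 (0.828 to 1.20), 0.987 for Adamts1 (0.874 to 1.11) and 1.14 for Mmp2 (0.581 to 2.16). Timp3 was at 878 CPM in the posterior and 1139.96 CPM in the anterior library, a ratio of 0.770 (0.741 to 0.801). As given above, the summed folliculostellate markers of these cells were also lower in the posterior library, and the part of this in the member ratios was not tested. Timp3 was compared by cluster as well. Within the 3 clusters the Timp3 ratio was 0.711, 0.581 and 0.592, below 1 in each. For Adamts1 the clusters went both ways, at 0.919 (0.778 to 1.08) in cluster 4, 1.84 (1.06 to 3.12) in cluster 7 and 1.56 (1.25 to 1.94) in the Krt17 cluster. For Mmp14 they were at 0.884 (0.641 to 1.20), 0.604 (0.307 to 1.10) and 1.40 (1.06 to 1.84), and for Timp1 at 0.941, 1.05 and 0.806, in the same order.

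Taken as a whole class, endothelial-like cells differed more between the lobes. Timp3 had a posterior over anterior ratio of 1.56 (1.48 to 1.64), Adamts1 of 2.05 (1.76 to 2.40) and Timp2 of 1.96 (1.60 to 2.42), and Timp1 of 0.989 (0.812 to 1.21). The Aqp1 cluster held 201 cells in the posterior and 0 in the anterior library. Within the Kdr cluster, which both libraries held, the ratio was 1.30 (1.21 to 1.39) for Timp3, 0.876 (0.667 to 1.14) for Adamts1, 0.714 (0.480 to 1.04) for Timp2 and 0.606 (0.417 to 0.863) for Timp1. The posterior excess of Adamts1 and Timp2 was thus not seen within that cluster. Lane 1 over lane 2, from the same suspension, had a Timp3 ratio of 1.19 (1.14 to 1.26) over all endothelial-like cells. In macrophage-like cells Timp2 had a posterior over anterior ratio of 2.003 (1.80 to 2.23) and, within the cluster marked by MHC class II genes, 1.03 (0.863 to 1.23). Timp3 in macrophage-like cells had a ratio of 7.05 (2.63 to 26.6), from 66 UMIs in the posterior and 4 in the anterior library, and the summed endothelial markers in these cells were at 79.4 CPM in the posterior and 3.32 CPM in the anterior library; their part in it was not tested. Lactotroph-like cells had a ratio of 1.28 (1.19 to 1.37) for Timp1 and 1.01 for Timp2. Within the lactotroph clusters the Timp1 ratio went both ways, at 1.26 (1.12 to 1.42) in the Cartpt cluster, 0.807 (0.714 to 0.909) in the Alk cluster, and 0.973 (0.662 to 1.39) and 1.13 (0.986 to 1.30) in the clusters marked by neither gene.

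**Figure D5:**
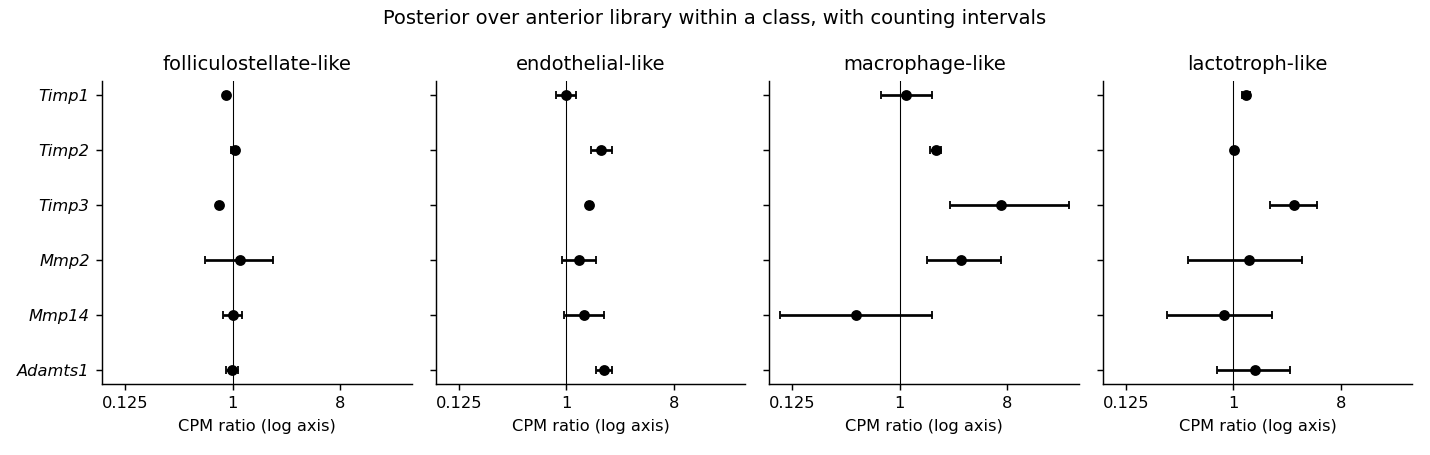
Ratio of CPM in the posterior over the anterior library for each member in folliculostellate-like, endothelial-like, macrophage-like and lactotroph-like cells, on a log axis with 95% counting intervals; genes with under 3 UMIs in either library are not drawn. Folliculostellate-like ratios lie between 0.770 and 1.14, and Timp2 lies at 1.96 in endothelial-like and 2.003 in macrophage-like cells.

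Single cells often carried several members at once, at close to the rate that the product of their separate shares gives. After thinning, 44.4% of posterior, 54.6% of anterior, 46.9% of lane 1 and 51.4% of lane 2 folliculostellate-like cells had UMIs of both Timp1 and Timp3, against products of the separate shares of 43.4%, 54.3%, 47.1% and 50.4%. In endothelial-like cells Timp3 and Adamts1 were found together in 39.3%, 19.7%, 18.1% and 25.3% of cells, against products of 38.4%, 21.6%, 18.6% and 24.8%. In fibroblast-like cells of the posterior library Mmp2 and its activator Mmp14 were found together in 35.8%, against a product of 31.0%, and in lane 1 in 27.6% against 28.5%. For each of these pairs the observed share lay above the product in some libraries and below it in others, and so it did for 4 of the further 8 pairs compared. The remaining 4 pairs lay above the product in every library with a value. Timp3 and Mmp14 were together in 12.6%, 20.8% and 15.8% of pituicyte-like cells of the posterior library, lane 1 and lane 2, against products of 11.4%, 14.3% and 12.1%. The others were Timp1 with Adamts1 in folliculostellate-like cells, Timp3 with Mmp2 in endothelial-like cells and Mmp2 with Timp2 in fibroblast-like cells, in the last at 64.2% against 61.9% in the posterior library and 48.3% against 47.6% in lane 1. These differences were not tested.

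The wider pathway was followed through 80 further genes of lists for metalloproteinases, ADAMTS and ADAM proteases, plasminogen activation, cathepsins, proteoglycans and binding partners, of which 78 were in the matrix and 54 passed the low-count filter. Folliculostellate-like against hormone cells had 32 of the 54 higher and 5 lower, where 23.8% of all genes tested were higher and 10.5% lower, with a median log2 fold change of 2.24 against 0.15 over all genes tested. Among the 7 tested metalloproteinases that are not members, 4 were higher and 2 lower in folliculostellate-like than in hormone cells, and 0 were higher and 3 lower in folliculostellate-like than in fibroblast-like cells, where 12.9% of all genes were higher and 10.8% lower. Of the 4 metalloproteinases higher than in hormone cells, Mmp23 was at only 0.355 CPM (dissected) and 0.461 CPM (whole) in folliculostellate-like cells, and Mmp12 at 4.97 and 0.198 CPM. Among 13 ADAMTS genes, 9 were higher and 0 lower against hormone cells, and 2 were higher and 9 lower against fibroblast-like cells. Adamts8, among those 9 higher, was at 0.592 and 0.198 CPM in folliculostellate-like cells. Among 6 genes of plasminogen activation, 5 were higher and 1 lower against hormone cells, and 3 were higher and 2 lower against pituicyte-like cells (18.3% and 11.7% of all genes). Of 5 ADAM genes 3 were higher and 0 lower against hormone cells, though 1 of them, Adam19, was at 0 and 0.263 CPM in folliculostellate-like cells, and 0 were higher and 4 lower against endothelial-like cells (18.2% and 19.0% of all genes). Of 9 cathepsin and cystatin genes 3 were higher and 1 lower against hormone cells, of 6 proteoglycan genes 4 and 0, and of 7 binding partners 4 and 1. Against fibroblast-like cells these 3 lists had 1, 0 and 0 genes higher and 6, 5 and 6 lower. Pituicyte-like against hormone cells had 32 of the 54 higher and 4 lower (median 1.94, against 0.07 over all genes), where 20.7% of all genes were higher and 13.9% lower. Fibroblast-like against endothelial-like cells had 26 higher and 8 lower (median 1.46, against -0.24), where 9.50% of all genes were higher and 13.4% lower, and folliculostellate-like against pituicyte-like cells 12 higher and 15 lower (median 0.25, against 0.09). Over all 54 genes, folliculostellate-like cells had 5 higher and 36 lower than fibroblast-like cells (median -2.15, against 0.23 over all genes) and 7 higher and 29 lower than endothelial-like cells (median -1.32).

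Adamts9, a protease related to Adamts1, was at 95.4 CPM (dissected) and 86.8 CPM (whole) in folliculostellate-like cells. It was higher there than in hormone (6.93 ± 0.16), pituicyte-like (2.04), fibroblast-like (3.24) and endothelial-like cells (1.55), whereas Adamts1 was lower than in endothelial-like cells. The versican gene Vcan, whose protein ADAMTS1 cuts, was at 78.2 and 82.0 CPM in folliculostellate-like cells and was higher than in hormone cells (8.29 ± 0.31), pituicyte-like cells (5.41) and endothelial-like cells (2.87), and lower than in fibroblast-like cells (-1.41). The fitted value against hormone cells depends on the prior count, because corticotroph-like cells had 0 CPM of Vcan in both preparations. Thyrotroph-like cells had 20.2 CPM (dissected) and 2.33 CPM (whole). Plat, the tissue plasminogen activator, was at 576 and 478 CPM in folliculostellate-like against 54.6 and 43.2 CPM in pituicyte-like cells (3.53). Plau, the urokinase, had the opposite sign, at 5.33 and 1.84 CPM in folliculostellate-like against 209 and 150 CPM in pituicyte-like cells (-5.71).

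Reck, a membrane-bound inhibitor of metalloproteinases, was the further inhibitor tested. It was at 6.15 and 3.88 CPM in folliculostellate-like cells, lower than in pituicyte-like cells (-3.70), with 68.6 and 67.1 CPM, than in fibroblast-like cells (-4.77), with 143 and 107 CPM, and than in endothelial-like cells (-3.09), with 47.8 and 38.0 CPM. Timp4 did not pass the low-count filter. Mmp15, another membrane-anchored metalloproteinase, went with Mmp14 in being higher in pituicyte-like than hormone cells (4.36) and lower in folliculostellate-like than pituicyte-like cells (-2.24). The macrophage elastase gene Mmp12 was at 254 and 348 CPM in macrophage-like cells. In fibroblast-like cells the collagen-degrading cathepsin gene Ctsk was at 670 and 678 CPM and the protease inhibitor gene Serpine2 at 1118 and 2396 CPM, and both were lower in folliculostellate-like cells (-8.12 and -6.01). The CD63 gene, Cd63, whose protein binds TIMP1, was expressed in all classes, at 705 and 788 CPM in folliculostellate-like and 1860 and 2009 CPM in fibroblast-like cells (-1.33).

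Likeness of pattern was measured as Pearson's r of log2(CPM + 1) over the 22 class sums, among 5892 genes with at least 50 CPM in some sum; the sums share libraries, and r is given as a description. Timp3 and Adamts1 were alike with r = 0.949, Timp3 and Mmp14 with r = 0.936, and Timp1 and Timp2 with r = 0.483. Nearest to Timp1 were AABR07037436.1 (0.906), Prrx1 (0.901) and Slc16a11 (0.900), and to Timp2 Mpg (0.871), Itgb5 (0.844) and Soat1 (0.840). Nearest to Timp3 were Fam129b (0.969), Hes1 (0.969) and Col13a1 (0.965). Nearest to Mmp2 were the collagen gene Col3a1 (0.975), itself a fibroblast marker used to name the class, Col5a3 (0.965) and Fam198b (0.962), to Mmp14 C1qtnf5 (0.976), Mxra8 (0.971) and Kank4 (0.965), and to Adamts1 Gjc1 (0.977), Emp1 (0.974) and Pear1 (0.972).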

How the data were processed

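Messenger RNA of dispersed pituitary cells was sequenced in 4 droplet libraries (10x Chromium, per the labels). The deposited values are whole UMI counts per gene and barcode, made by the authors with Cell Ranger 3.1 per the submitters' processing notes. The build, the annotation, the use of strand in counting and any equalizing of reads on aggregation are not given in the sources used here. A list of barcodes, also deposited and holding text of no other unit, gives the library of each barcode as a suffix. Kept were 20381 barcodes that had 1000 UMIs or more, 500 genes or more and no more than 20% mitochondrial UMIs, and 604 of them with a Scrublet score above 0.25 (expected rate 0.06) were left out. Clusters came from 2000 variable genes, 30 components, 15 neighbors and Leiden resolution 1.0 (scanpy 1.11.5, leidenalg 0.10.2), without the members and list genes; the stromal cluster was split at resolution 0.3 after the data were seen. Clusters of 191 and 28 cells and stromal sub-clusters of 54 and 19 cells stayed unnamed.

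For 11 classes that had 50 cells or more in each preparation, summing the UMIs gave 22 values per gene. In dissected sums, pituicyte-like and melanotroph-like cells were those of the posterior library, hormone and folliculostellate-like cells those of the anterior library, and the rest those of both. The test was edgeR 4.0.16 (TMM, filterByExpr, quasi-likelihood, terms for class and preparation, R 4.3.3). Preparation enters as a block because each preparation is a single suspension or set of glands that all its classes share. With 2 preparations, p-values measure the spread between these sums, and cells were not replicates. Members, markers and lists were chosen with earlier results of these data known. Named list genes were, by rule, the 3 of highest mean CPM in each list and the 3 largest called changes of a comparison with at least 20 CPM; some of these are not printed. Alternatives tried were doublets kept, a stricter cell filter (2000 UMIs, 15% mitochondrial), each library left out, both dissected libraries in every class, RLE factors, no low-count filter, no preparation term, adjustment over all 6 comparisons, and DESeq2 1.42.0.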

Additional observations from a re-analysis of the deposited data

How the results depend on the processing

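The counts of members called held in most settings. Leaving out each library in turn gave 3 to 5 members lower in folliculostellate-like than in fibroblast-like cells, 5 without posterior replicate 1, and 0 to 1 lower in fibroblast-like than in endothelial-like cells, 1 without whole replicate 2; no other such count moved by over 1.5 times. Of 492 member values under an alternative, 473 kept their direction and side of the limits, 7 lost the call, 7 gained it and 5 changed sign, none of these 5 having been called. The sign changes were Timp3 between folliculostellate-like and pituicyte-like cells (-0.14 without the Krt17 cluster), Timp1 between pituicyte-like and hormone cells (-0.27 to 0.26 with a library left out, and -0.061 with both dissected libraries summed for every class), and, between fibroblast-like and endothelial-like cells, Timp3 (-0.82 to 0.050) and Adamts1 (-1.11 to 0.32) with a library left out, both positive without the posterior library. Without that library pituicyte-like cells have 1 sum, whose spread is assumed to be that of the other classes, and the dissected fibroblast-like sum holds 9 cells. The cause was not tested.

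Fits without the preparation block gave the same counts of calls in all 6 comparisons, for example 5 members higher in folliculostellate-like than in hormone cells, with Timp1 at 5.78. DESeq2 also gave the same counts. The settings that leave out the Krt17, Rax and Aqp1 clusters or keep the stromal cells together were chosen after seeing the data. Of 144 class levels, 30 moved by more than the spread between libraries, and the mean of per-cell CPM put Timp3 in folliculostellate-like cells at 625 CPM. Depth limits Mmp2 and Adamts1 in hormone cells, where a library held 6 to 15 and 9 to 30 UMIs over all 5 classes.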

Other observations

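A stromal sub-cluster of 54 cells kept no class name, since MHC class II and hemoglobin genes were among its leading genes, and 2 of the 6 pericyte markers and 0 of the 6 fibroblast markers were above their level in the whole stromal cluster. The pericyte markers still summed to 1402 CPM in the posterior library, 4512 in the anterior, 5572 in lane 1 and 2876 in lane 2, and the fibroblast markers Col3a1 and Dcn were at 1929 and 1871 CPM. In it Timp1 was at 1447 CPM in the posterior library (6 cells), 2110 in the anterior (17 cells), 1932 in lane 1 (18 cells) and 1538 in lane 2 (13 cells), and Timp3 was at 1134, 1377, 1168 and 1602 CPM. The Timp1 levels were above those in fibroblast-like and pericyte-like cells and below the 2142 to 2463 CPM of folliculostellate-like cells. Folliculostellate markers of this sub-cluster are not given here, and the part of folliculostellate transcripts in its Timp1 level was not tested. Timp4, the remaining TIMP, was listed at 2.78, 2.72, 2.04 and 3.20 CPM in folliculostellate-like cells of the posterior, anterior, lane 1 and lane 2 libraries and did not pass the low-count filter.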
